A study of Homo sapiens with 3 samples.

Results

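The 10 genes described here are receptor tyrosine kinases listed as possible bypass receptors under anlotinib treatment, together with the TAM ligands. They are the TAM receptors AXL, TYRO3 and MERTK, their ligands GAS6 and PROS1, the RON receptor MST1R, the insulin-type receptors IGF1R and INSR, and the collagen receptors DDR1 and DDR2. They were chosen by name from 60880 gene rows, by a rule that set aside the ERBB genes, MET and kinases taken as anlotinib targets. Whether anlotinib also acts on any of the listed receptors was not tested here. The study concerned acquired resistance to anlotinib, a multi-kinase inhibitor, in NCI-H1975, an EGFR-mutant human lung adenocarcinoma line. Values were read from 1 RNA-seq library, replicate 2 of the wild-type cells, grown per the labels in RPMI medium with fetal calf serum and antibiotics. The resistant cells and the TFAP2A-knockdown resistant cells named in the design text, and the 2 wild-type ATAC-seq samples, were not analysed here. All values below therefore describe the parental state in 1 library without a replicate, and no test between cell states was made.

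Receptor tyrosine kinases carry a ligand-binding part outside the cell and a kinase inside it, and ligand binding brings receptors together so that the kinases phosphorylate each other. In lung cancer cells treated with inhibitors of EGFR, other receptors that feed the same RAS-ERK and PI3K-AKT cascades can sustain growth, and AXL, IGF1R and MET are well known examples. TAM receptors recognise phosphatidylserine on dying cells through the bridging proteins GAS6 and PROS1, insulin-type receptors are preformed dimers, and the discoidin domain receptors bind fibrillar or basement membrane collagen.

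The library held 25012733 counts, of which 1 count equalled 0.04 CPM (counts per 1000000 counts of the library). For a gene at 0, the limit set by 3 counts was 0.12 CPM. In bulk RNA, a low level in every cell and a higher level in fewer cells cannot be told apart. A gene was called detected at 10 counts or more. The epithelial markers were all present (7 of 7 detected, from 4961 counts for EPCAM to 132533 for KRT7), and 4 of 5 lung lineage markers were detected, with 2926 counts for NKX2-1 and 1 for SFTPC. Markers of cell types in which TAM receptors, GAS6 or DDR2 are also known were mostly absent. PTPRC and TYROBP, leukocyte genes, had 2 counts and 1 count, and CD163 and C1QA were at 0, although CSF1R had 731 and CD14 had 600. The fibroblast genes DCN, LUM, PDGFRA and THY1 were at 0, although COL1A1 had 7847 counts. CLDN5, TIE1 and EMCN were at 0 among endothelial genes, although CDH5 had 340. Of 8 macrophage, 7 fibroblast and 6 endothelial markers with a row, 2, 1 and 2 were detected, with summed counts of 1339, 7855 and 351.

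All 10 genes were detected, where 29.4% of all gene rows, 69.7% of protein-coding genes and 65.5% of 58 listed receptor tyrosine kinases were. Their counts ran from 48 for DDR2 to 5554 for MST1R, with a median of 1293.5 counts or 51.7 CPM. Over all detected genes the median was 360 counts or 14.4 CPM, and the median protein-coding gene had 246 counts or 9.83 CPM. In order of read number, MST1R was followed by DDR1, PROS1, IGF1R, AXL, INSR, TYRO3, MERTK, GAS6 and DDR2. The place of GAS6 is uncertain: it would be place 2 instead of 9 if the reads of its antisense gene were its own. Each neighbouring pair in this order was separated by more than counting error except PROS1 and IGF1R, whose ratio was 1.02 (95% interval 0.96 to 1.09). Transcript lengths were not used here, so this is an order of reads and not of transcript molecules, and every ratio between genes below is a ratio of read numbers. Intervals are 95% intervals that cover counting error only.

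**Figure D1:**
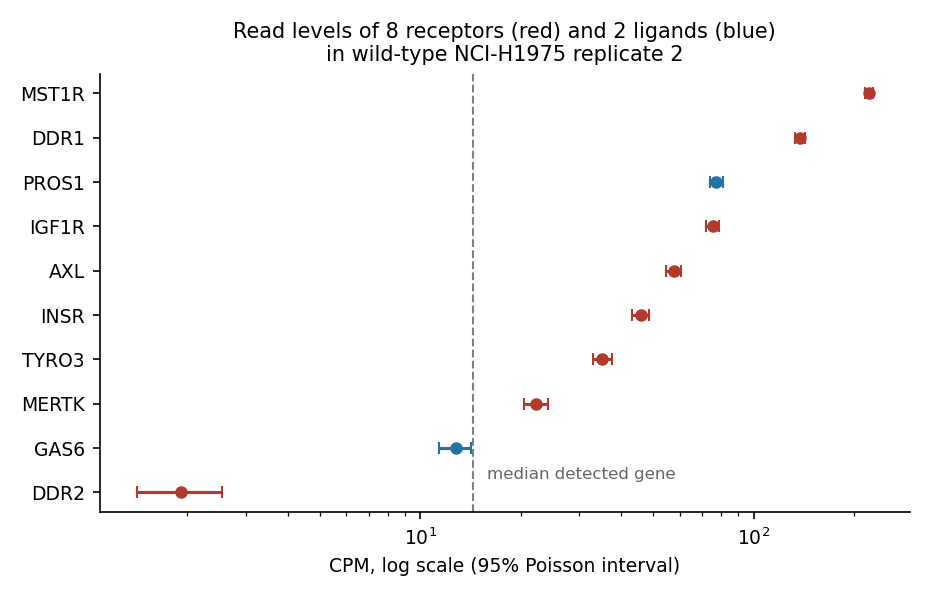
Level of each gene in CPM on a log axis in the 1 library, with points for the measured level and bars for the 95% Poisson interval; receptors are red and the ligands blue. MST1R leads at 222 CPM and DDR2 is lowest at 1.92 CPM, and GAS6, whose value is uncertain because of its antisense gene, and DDR2 are the genes left of the dashed median of detected genes at 14.4 CPM.

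The TAM receptors were all expressed, and AXL took the most reads. AXL (ENSG00000167601.11_2), the TAM receptor most often linked to drug tolerance in lung cancer, had 1442 counts or 57.7 CPM (54.7 to 60.7), a count higher than that of 78.5% of detected genes. TYRO3 (ENSG00000092445.11_3), best known from the nervous system, had 880 counts or 35.2 CPM (32.9 to 37.6). MERTK (ENSG00000153208.16_2), the receptor with which macrophages and retinal pigment cells engulf dying material, had 557 counts or 22.3 CPM (20.5 to 24.2). Of the 2879 reads of these receptors AXL held 50.1% (48.2 to 51.9), TYRO3 30.6% (28.9 to 32.3) and MERTK 19.3% (17.9 to 20.8). AXL had 1.64 times (1.51 to 1.78) the reads of TYRO3 and 2.59 times (2.35 to 2.86) those of MERTK, and TYRO3 had 1.58 times (1.42 to 1.76) those of MERTK. The TYRO3 pseudogene TYRO3P had 7 counts, so few reads were assigned to that copy.

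The start sites of these receptors are shown because TFAP2A, the factor the study knocked down, belongs to the AP-2 family, which binds sites of the form GCCNNNGGC. RefSeq windows on GRCh38.p14, from 250 bases before to 50 after an annotated start, were searched for this motif, which reads the same on both strands. It occurred in 23.2% of 35116 windows and in 8 of 21 windows of the 10 genes, and 7 of the 10 genes had a window with it. Among protein-coding genes with a window, 38.7% of detected genes and 22.2% of the others had one. Among the listed receptor tyrosine kinases with a window, 16 of 34 detected kinases (47.1%) and 5 of 17 under 10 counts (29.4%) had one. The MERTK window held 3 matches, a number that 1.2% of all windows reached or passed, the first AXL window held 2 and the first TYRO3 window held 1. The second AXL window and the second TYRO3 window held 0. The fixed letters of the motif are G and C. GC content was 78.3% in the MERTK window, 66.0% in the first AXL window and 80.3% in the first TYRO3 window. The median over all windows was 58.7%, and windows of like GC content were not compared. The matches are in capitals below, and none of them overlap. The windows are chr2:111898357-111898656 (MERTK), chr19:41218973-41219272 (AXL) and chr15:41558962-41559261 (TYRO3), all on the plus strand. A match describes these letters only, and binding of TFAP2A was not measured here.
MERTK: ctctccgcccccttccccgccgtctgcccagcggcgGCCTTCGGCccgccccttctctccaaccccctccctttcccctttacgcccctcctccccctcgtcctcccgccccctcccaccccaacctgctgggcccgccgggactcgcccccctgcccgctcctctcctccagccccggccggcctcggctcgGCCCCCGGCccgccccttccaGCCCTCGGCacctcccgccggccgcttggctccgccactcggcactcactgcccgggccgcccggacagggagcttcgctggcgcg
AXL: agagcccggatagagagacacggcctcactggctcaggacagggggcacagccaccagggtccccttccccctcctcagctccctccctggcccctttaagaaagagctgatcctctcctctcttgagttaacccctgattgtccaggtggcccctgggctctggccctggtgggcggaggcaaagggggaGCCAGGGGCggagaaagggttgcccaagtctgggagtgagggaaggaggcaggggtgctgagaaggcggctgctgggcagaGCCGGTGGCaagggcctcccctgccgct
TYRO3: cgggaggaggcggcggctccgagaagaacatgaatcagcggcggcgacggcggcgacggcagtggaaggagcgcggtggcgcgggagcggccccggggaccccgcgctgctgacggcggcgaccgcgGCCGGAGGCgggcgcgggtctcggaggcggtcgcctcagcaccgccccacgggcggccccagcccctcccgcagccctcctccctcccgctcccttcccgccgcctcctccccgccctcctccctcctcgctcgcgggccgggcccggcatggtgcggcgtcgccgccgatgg

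PROS1 held most of the reads assigned to the ligand genes, a direction that depends on how reads of a GAS6 antisense gene were assigned. PROS1 (ENSG00000184500.15_3), protein S, which activates TYRO3 and MERTK and also acts as an anticoagulant cofactor, had 1930 counts or 77.2 CPM (73.8 to 80.7), a count higher than that of 84.0% of detected genes. GAS6 (ENSG00000183087.14_2), the ligand with the highest affinity for AXL, had 319 counts or 12.8 CPM (11.4 to 14.2), a count higher than that of 47.9% of detected genes. The ratio of GAS6 to PROS1 reads was 0.165 (0.146 to 0.186), and PROS1 held 85.8% (84.3 to 87.2) of the reads of both ligands. AXL had 4.52 times (4.0 to 5.12) the reads of GAS6, while PROS1 had 1.34 times (1.25 to 1.43) the reads of AXL. The PROS1 pseudogene PROS2P had 2 counts.

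The GAS6 value is uncertain because of a neighbouring antisense gene. GAS6-AS1, a long non-coding RNA gene whose span overlaps that of GAS6 in RefSeq (GRCh38.p14), had 3825 counts, 12.0 times (10.7 to 13.5) those of GAS6. Among 1347 pairs of a gene and a row named as its antisense partner, with at least 10 counts in either, the antisense row was the higher in 118, or 8.76%. A gene with several such rows enters several pairs, and the pairs covered 1249 genes. GAS6-AS1 had the third highest count of these antisense rows. Among the 1299 pairs whose gene had at least 10 counts, 9 had a larger ratio of antisense to gene than GAS6. The library kit keeps strand, but no source used here states the strand setting of the counting, so reads of GAS6 and GAS6-AS1 cannot be told apart with certainty. If the GAS6-AS1 reads were added to GAS6, the ratio of GAS6 to PROS1 would be 2.15 and that of AXL to GAS6 would be 0.348, and both directions would reverse. GAS6 would then have 4144 counts or 166 CPM, and PROS1 would hold 31.8% of the ligand reads. GAS6-DT, which starts next to GAS6 in the other direction, had 4 counts.

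**Figure D2:**
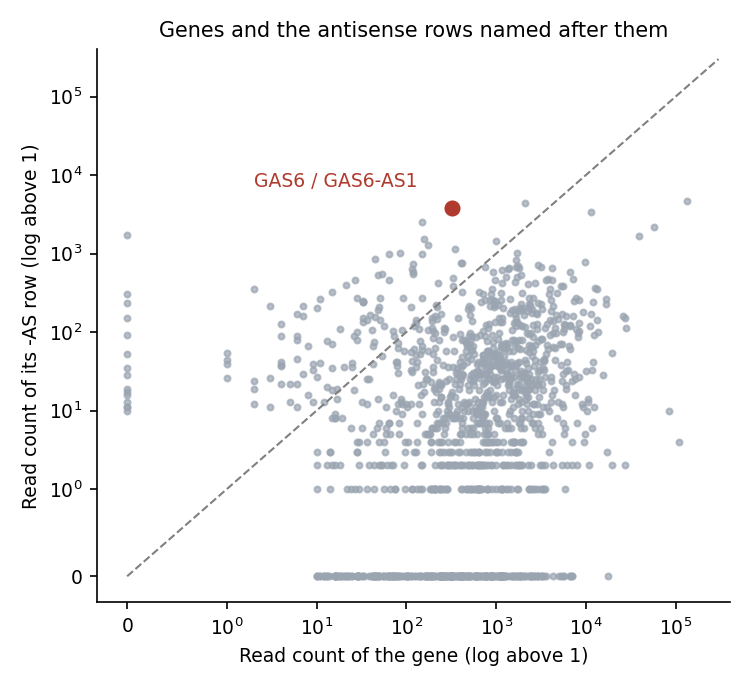
Read count of the gene (horizontal axis) against that of the row named as its antisense partner (vertical axis) for 1347 pairs, both axes logarithmic above 1 and linear below, with the dashed line at equal counts. GAS6 lies above the line with 319 counts against 3825 for GAS6-AS1, where 118 pairs lie above it in all.

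Of 13 genes whose proteins prepare TAM ligands or act in phosphatidylserine exposure 12 were detected, with a median of 1330 counts or 53.2 CPM. Detection in this list and the partner lists below stands beside 69.7% of all protein-coding genes, so it is common. GAS6 and PROS1 need vitamin K-dependent carboxylation, and the carboxylase GGCX had 1330 counts. The vitamin K reductases VKORC1L1 and VKORC1 had 1793 and 189 counts, and whether annotated neighbours take reads from VKORC1 was not checked. The 4 highest genes of the list were the proprotein convertase FURIN (4050 counts), the galectin LGALS3, reported as a MERTK ligand (3091), the flippase ATP11A (2186) and TMEM30A, the subunit that flippases share (2091). TULP1, a retinal protein reported as a MERTK ligand, had 2 counts. GGCX, VKORC1 and VKORC1L1 were singled out after their counts were seen. Of the proteases that can release receptor ectodomains, ADAM10, which cuts AXL and DDR1, had 2098 counts and ADAM17, which cuts MERTK and AXL, had 1465. ADAM9 had 5037 counts and the membrane-bound metalloproteinase MMP14 had 6116. Of the listed metalloproteinase inhibitors, which do not each block all of these proteases, TIMP1 had 4135 counts. TIMP3, which blocks ADAM17, was at 0.

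MST1R had the most reads of the 10 genes. MST1R (ENSG00000164078.12_3) encodes RON, the receptor of macrophage-stimulating protein and the closest relative of MET, and it had 5554 counts or 222 CPM (216 to 228), a count higher than that of 95.7% of detected genes. Its reads were 0.956 times (0.921 to 0.992) those of MET, which had 5809 counts, 3.85 times (3.63 to 4.08) those of AXL and 2.94 times (2.79 to 3.1) those of IGF1R. Its ligand gene MST1 had 352 counts, so that the receptor had 15.8 times (14.2 to 17.6) the reads of the ligand. MST1 has the near-identical copies MST1P2, with 217 counts, and MST1L, with 47, and reads shared among them could have been split or dropped. The ligand is secreted as an inactive precursor and cut by serine proteases at the cell surface. All 7 listed genes of the ligand and its activation were detected. Matriptase (ST14) had 4987 counts, hepsin (HPN) 371, TMPRSS2 58 and HGFAC 43. The inhibitors of these proteases, SPINT2 and SPINT1, had 7536 and 4121 counts, and SPINT1 had 0.826 times (0.793 to 0.861) the reads of ST14.

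Both insulin-type receptors were expressed, and few or no reads were assigned to the genes of their ligands. IGF1R (ENSG00000140443.14_4), the receptor of both IGF ligands, had 1886 counts or 75.4 CPM (72.0 to 78.9), a count higher than that of 83.6% of detected genes. INSR (ENSG00000171105.13_3), the insulin receptor, which also forms hybrid receptors with IGF1R, had 1145 counts or 45.8 CPM (43.2 to 48.5), a count higher than that of 73.9% of detected genes. IGF1R had 1.65 times (1.53 to 1.77) the reads of INSR. The antisense gene IRAIN, whose span overlaps IGF1R in RefSeq, was at 0, as was INSRR, the orphan member of the same receptor family. INS and IGF2 were at 0 and IGF1 had 4 counts, and whether annotated neighbours take reads from INS or IGF2 was not checked. The clearance receptor IGF2R, which carries IGF2 to lysosomes and has no kinase, had 9082 counts, 4.82 times (4.58 to 5.06) those of IGF1R. Ligand protein was not measured.

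Of 13 substrates and adaptors of the insulin-type receptors 11 were detected, with a median of 671 counts or 26.8 CPM. The adaptor SHC1 had 6074 counts, the docking protein IRS1 had 4163, the phospholipase PLCG1 had 1954 and the adaptor GRB2 had 1889. IRS1 had 4.37 times (4.07 to 4.69) the reads of IRS2, which had 953 and was singled out after its count was seen. IRS4 was at 0 and the PI3K regulatory subunit PIK3R2 had 3 counts, a value that could not be checked for overlap with other annotated genes. All 11 inhibitors of insulin-type receptors or their signal were detected, with a median of 824 counts or 32.9 CPM. The receptor phosphatase PTPRF had 15949 counts, the pseudokinase TRIB3, which binds AKT, had 11277, the adaptor GRB10 had 6708 and the phosphatase PTPN1 had 3075. GRB10 had 164 times (120 to 228) the reads of its relative GRB14, which had 41 and was also singled out after its count was seen.

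The collagen receptors differed more in read number than the TAM receptors, the TAM ligands or the insulin-type receptors did among themselves. DDR1 (ENSG00000204580.13_3), the discoidin domain receptor typical of epithelial cells, had 3450 counts or 138 CPM (133 to 143), a count higher than that of 92.0% of detected genes. DDR2 (ENSG00000162733.17_3), its relative typical of fibroblasts and other mesenchymal cells, had 48 counts or 1.92 CPM (1.41 to 2.54), a count higher than that of 22.8% of detected genes. The ratio of DDR1 to DDR2 reads was 71.9 (54.1 to 97.7). DDR1-DT, the gene that starts next to DDR1, was at 0. Of 8 mesenchymal state markers 6 were detected, with 57711 counts for vimentin (VIM), 34838 for fibronectin (FN1), 894 for SNAI1, 299 for SNAI2, 271 for ZEB1 and 101 for ZEB2. CDH2 had 4 counts and TWIST1 was at 0.

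The start regions of DDR1 and DDR2 also differed in sequence. CpG dinucleotides, which are dense at the promoters of broadly expressed genes, were counted in the same RefSeq windows. In order along the chromosome, the 8 DDR1 windows held 9, 3, 9, 11, 34, 21, 9 and 3 CpG dinucleotides. The 3 DDR2 windows held 0, 5 and 3, and the median over all windows was 14. Most DDR1 windows thus lay below that median, as all DDR2 windows did. The CpG-richest window of each gene is printed with its CpG dinucleotides in capitals. They are chr6:30884269-30884568 for DDR1 and chr1:162631725-162632024 for DDR2, both on the plus strand of GRCh38.p14. Which of the annotated starts NCI-H1975 cells used was not measured.
DDR1: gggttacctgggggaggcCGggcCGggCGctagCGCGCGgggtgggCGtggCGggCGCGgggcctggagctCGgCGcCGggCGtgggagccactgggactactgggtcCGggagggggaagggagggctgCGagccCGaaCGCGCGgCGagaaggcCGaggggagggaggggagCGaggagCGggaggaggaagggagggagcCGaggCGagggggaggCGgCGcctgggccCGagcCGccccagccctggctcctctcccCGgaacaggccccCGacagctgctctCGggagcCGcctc
DDR2: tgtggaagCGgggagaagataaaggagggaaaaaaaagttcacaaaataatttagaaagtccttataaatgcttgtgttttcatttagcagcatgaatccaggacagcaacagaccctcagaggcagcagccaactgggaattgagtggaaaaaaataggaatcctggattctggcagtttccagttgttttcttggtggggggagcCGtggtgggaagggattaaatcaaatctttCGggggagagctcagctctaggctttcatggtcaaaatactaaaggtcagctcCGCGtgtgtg

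A window was called CpG-rich at an observed to expected CpG ratio of at least 0.6 and a GC content of at least 50%, which 46.9% of windows met. Every gene of the 10 except DDR2 had such a window. IGF1R had 55 CpG dinucleotides, TYRO3 49 in its first window, GAS6 42, INSR 36, MERTK 32, MST1R 25 and PROS1 18. AXL held fewer than the other TAM receptors in its richest window, with 17 in its second window and 7 in its first, the one with the AP-2-type matches. Of the 58 receptor tyrosine kinases 51 had a window. A CpG-rich window was found for 27 of 34 detected kinases (79.4%) and for 13 of 17 under 10 counts (76.5%). For protein-coding genes in general the shares were 84.0% of detected genes and 33.7% of the others.

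**Figure D3:**
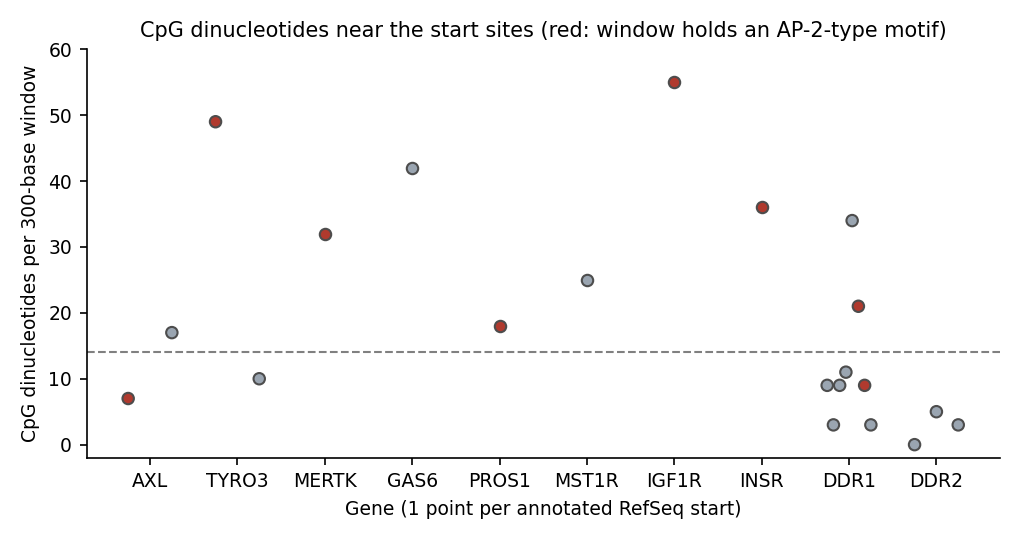
Number of CpG dinucleotides in each 300-base RefSeq window around the annotated starts of the 10 genes, with the median of all windows dashed at 14 and windows that hold an AP-2-type motif in red. IGF1R is highest at 55, and the 3 DDR2 windows lie between 0 and 5.

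Collagen genes that supply DDR ligands were unevenly expressed, with 9 of 13 detected and a median of 136 counts or 5.44 CPM. COL5A1 had 17047 counts, COL1A1 had 7847, COL6A1 had 5794 and COL1A2 had 4104. COL3A1 had 2 counts, COL4A1 had 8, and COL2A1 and COL10A1 were at 0. All 9 binding partners of the DDR proteins were detected, where 69.7% of protein-coding genes were. Their median was 2688 counts or 107 CPM, and the lowest was PPP1R1B with 22 counts. The non-muscle myosins MYH9 and MYH10 had 96748 and 2779 counts, SHC1 had 6074 and the dishevelled protein DVL1 had 5141.

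**Figure D4:**
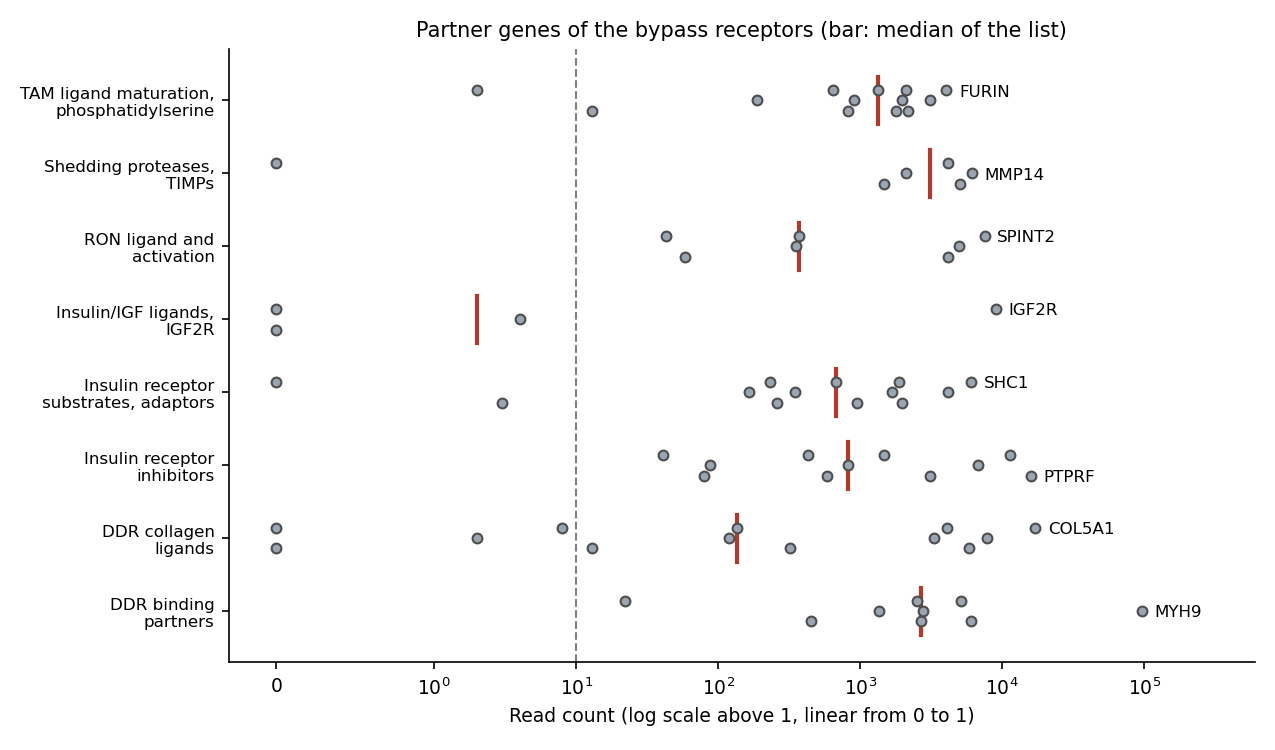
Read count of each partner gene by list on an axis that is logarithmic above 1 and linear from 0 to 1, with red bars at the list medians, the dashed line at 10 counts and the highest gene of each list named. The ligand list has a median of 2 counts with IGF2R alone above 10, while all DDR binding partners lie above 10.

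Set among all 58 receptor tyrosine kinases, the 8 receptors held 14962 of 75197 reads, or 19.9% (19.6 to 20.2). Receptor tyrosine kinases as a family took 0.301% (0.298 to 0.303) of the library, with a median of 118 counts or 4.72 CPM, and 12 of them were at 0. The 10 with the most reads held 77.0% (76.7 to 77.3) of the family's reads, and MST1R and DDR1 were among them in places 6 and 8. The others of the 10 were EPHB4 (12728 counts), EGFR (8328), ERBB2 (6380), EPHA2 (5947), MET (5809), ERBB3 (3634), PTK7 (3095) and LMTK2 (2963). MST1R held 7.39% (7.2 to 7.58) of the family's reads and DDR1 4.59% (4.44 to 4.74). IGF1R, in place 12, held 2.51%, AXL, in place 14, held 1.92%, and INSR, in place 17, held 1.52%. TYRO3 held 1.17% in place 18, MERTK 0.741% in place 22 and DDR2 0.0638% in place 33. All TAM receptors together held 3.83% (3.69 to 3.97). AXL had 0.173 times (0.164 to 0.183) the reads of EGFR and 0.248 times (0.234 to 0.263) those of MET.

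Several receptors were level with a neighbour in this order within counting error. AXL did not separate from the atypical WNT receptor RYK below it, which had 1381 counts, a ratio of 1.04 (0.969 to 1.12). IGF1R did not separate from the ephrin receptor EPHA1, which had 1806 counts, a ratio of 1.04 (0.979 to 1.11). INSR had 0.958 times (0.883 to 1.04) the reads of FGFR1, an anlotinib target with 1195 counts, and MERTK had 1.09 times (0.967 to 1.23) those of FGFR4, with 510. TYRO3 stood between INSR above it and CSF1R below it, which had 731 counts, and separated from both, with ratios of 0.769 (0.703 to 0.84) and 1.2 (1.09 to 1.33). MERTK had 1.13 times (1.0 to 1.28) the reads of ROR1, which had 491, and lay below EPHB3, with 728, and EPHA10, with 684. IGF1R lay below EPHB2, which had 2199 counts. MST1R and DDR1 separated from both kinases above and both below. DDR2 did not separate from ROR2, which had 43 counts, or from the VEGF receptor KDR, which had 35, with ratios of 1.12 (0.724 to 1.73) and 1.37 (0.869 to 2.18), and it lay below NTRK2 and AATK, which had 97 and 71.

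**Figure D5:**
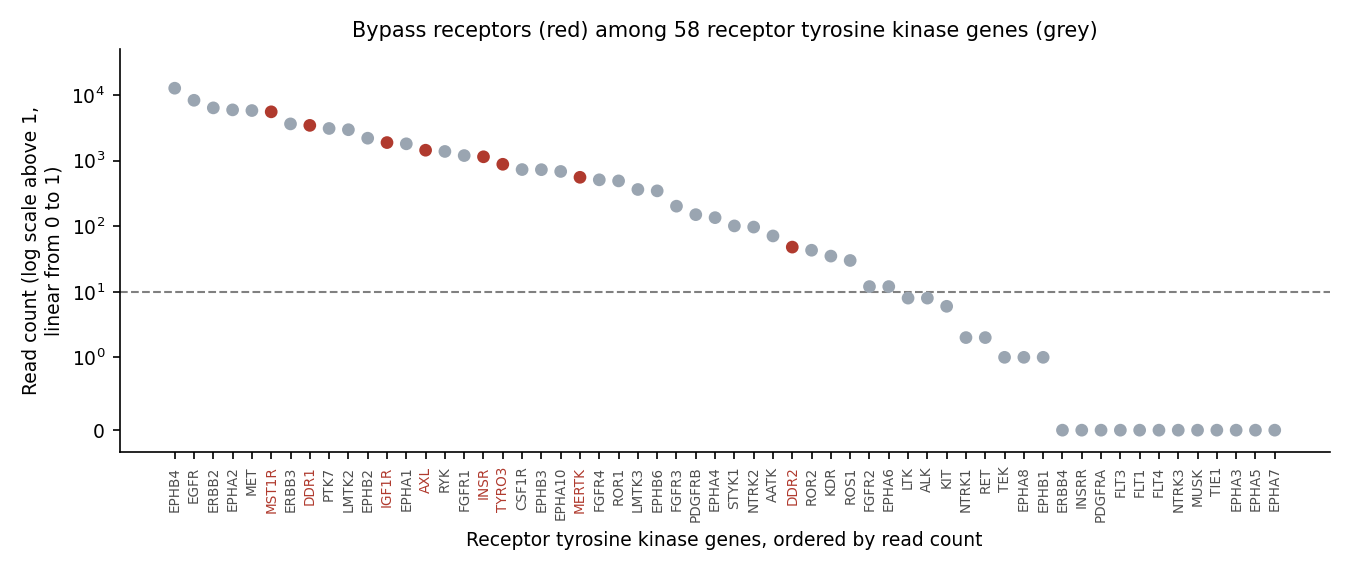
Read counts of 58 receptor tyrosine kinase genes in descending order on an axis that is logarithmic above 1 and linear below, with the bypass receptors in red, the other kinases in grey and the dashed line at 10 counts. MST1R is in place 6, 5 of the 8 receptors lie in places 12 to 22, and DDR2 is in place 33.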

How the data were processed

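The authors deposited raw whole-number read counts per gene for the library, in a headerless file keyed by Ensembl identifier. STAR, featureCounts and the build hg19 are named, per the submitters' processing notes, without roles or settings. Its annotation release, strand setting and treatment of reads shared by genes were not given in the sources used here. Identifiers were matched without version to current symbols (56373 of 60880 rows, 99.8% of counts). The 41 pseudoautosomal Y rows, at 0, got no symbol.

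Counts were divided by the library total of 25012733 to give CPM. Levels have exact Poisson (Garwood) intervals, shares exact binomial (Clopper-Pearson) and ratios conditional binomial intervals. Because the reads carry no molecular identifiers, they are not independent molecules, and intervals and the limit for a count of 0 cover counting error only. With 1 library there was no test.

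The members, the 16 other gene lists and the choices were made with earlier results of these data known, and the motif and CpG counts and the antisense comparison after the counts were seen. Of 203 list entries, 10 had no single row by name. All 10 members are named, with every gene of lists up to 8 genes, the 4 highest and up to 4 genes under 10 counts of longer lists, the 10 leading kinases and the kinases next to each member. Marker lists are summarised. Promoter windows and gene spans come from RefSeq (GRCh38.p14) and were matched by symbol. Alternatives were other detection minimums, other totals, thinning to 50% and other sets of kinases. Computation used SciPy 1.17.1, pandas 2.3.3 and NumPy 2.4.6 under Python 3.11.15, and plots used Matplotlib 3.10.9.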

Additional observations from a re-analysis of the deposited data

How the results depend on the processing

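All 10 genes were detected at minimums of 1 count and 1 CPM and after thinning the counts to 50%, and 9 at a minimum of 50 counts, where DDR2 with its 48 counts was lost. Thinning, a random draw from the same counts that leaves levels, ratios and shares unchanged on average, cannot stand in for a replicate. It also left the 10 levels, the 12 ratios and the 8 shares of kinase reads inside their intervals. It left each list median within the Poisson interval of a count of that size, which is wide for the lowest medians (0.04 against 0.08 CPM for insulin and IGF ligands with the decoy receptor, and 0.04 against 0.02 CPM for endothelial markers). Lists whose detected number moved by over 1.5 times were, at 1 count, insulin and IGF ligands with the decoy receptor (2), antisense and copy genes (6), macrophage markers (6) and fibroblast markers (3), and endothelial markers became 1 at 50 counts, at 1 CPM and after thinning.

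Leaving mitochondrial genes out of the total multiplied every CPM by 1.06, which gave 60.9 for AXL, 81.5 for PROS1, 235 for MST1R, 79.7 for IGF1R and 146 for DDR1. Leaving out the 10 highest genes multiplied by 1.08 and gave 62.0 for AXL, 37.9 for TYRO3, 83.0 for PROS1, 239 for MST1R, 81.1 for IGF1R, 49.3 for INSR and 148 for DDR1. A total of protein-coding genes multiplied by 1.09 and gave 62.7 for AXL, 38.3 for TYRO3, 24.2 for MERTK, 84.0 for PROS1, 242 for MST1R, 82.0 for IGF1R, 49.8 for INSR and 150 for DDR1. The other levels stayed in their intervals, and ratios do not depend on the total. Without EGFR, ERBB2, ERBB3, ERBB4 and MET the shares of kinase reads became 10.9% for MST1R, 6.76% for DDR1, 3.69% for IGF1R, 2.82% for AXL, 2.24% for INSR, 1.72% for TYRO3, 1.09% for MERTK and 0.094% for DDR2, since fewer genes share the sum.

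Adding GAS6-AS1 reads to GAS6, an alternative chosen after seeing the data, reversed the ratio of GAS6 to PROS1 to 2.15 and that of AXL to GAS6 to 0.348. It also put GAS6 at 166 CPM and the PROS1 share of ligand reads at 31.8%. Ratios per kilobase were not run, because transcript and protein lengths were not at hand. No paired analysis was possible because the values come from a single library.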
